A study of Mus musculus with 16 samples.

Results

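Imprinted genes are expressed mainly from the allele inherited from 1 parent. A fixed list of 36 such genes was taken from the 21887 protein-coding genes of the mouse gene table, 14 counted as maternally expressed and 22 as paternally expressed, and histone mark peaks were located over them. The cells were CJ9 mouse embryonic stem cells, wild type (WT) or arid4b-delta, a line changed in Arid4b, directed for 5 days to endoderm or to mesoderm and fixed for 8 min with formaldehyde. The labels do not say what the delta allele removes or how many clones were used. Each combination of genotype and lineage was profiled with antibodies to 3 histone modifications (H3K4me3, H3K27me3 and H3K27ac), each in 1 ChIP-seq library, so 12 libraries with a peak list each were used, and the 4 input samples were not analysed here.

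H3K4me3 lies at the starts of genes that are active or ready to be transcribed, H3K27ac at active promoters and enhancers, and H3K27me3 is laid down by Polycomb repressive complex 2 over repressed developmental genes. At an imprinted gene the parental alleles carry different chromatin, set up by DNA methylation laid down in 1 germ line at an imprinting control region, and at some genes by H3K27me3. Both H3K4me3 and H3K27me3 can therefore be found at such a promoter either on the same allele or on opposite alleles, and these lists do not separate alleles. Arid4b encodes a chromatin-binding subunit of the Sin3 histone deacetylase complex, and with its relative Arid4a it is known for a role at the imprinted Snrpn domain in mice. Gnas is placed here among the maternally expressed genes for its main coding transcript, although its locus also makes transcripts from the paternal allele, and Grb10, Blcap, H13 and Ddc are imprinted only in some isoforms or tissues.

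A promoter was called marked when a peak lay within 1000 bp of a start of the gene. Starts came from RefSeq (GRCm38.p6, the mm10 build) for 30 of the 36 genes, 9 of which had several, giving 47 starts. For Cdkn1c, Peg10, Sgce and Impact the gene end with more H3K4me3 was taken, and for Ins2 and Rtl1 both ends, so H3K4me3 at the first 4 helped to choose the place. The lists held 6150 to 35884 peaks and no read counts, so depth is unknown. With 1 library per group no difference below has a replicate check or a test, and binomial intervals cover counting error only. Peg3 and Usp29 start 164 bp apart and Peg10 and Sgce 102 bp apart, so each pair shares peaks. The lineage labels were checked against marker genes. None of 6 endoderm markers carried promoter H3K27ac in any library, so an endoderm identity was not seen in the acetylation. Of 8 mesoderm markers, 6 carried H3K27ac in WT mesoderm and 0 in the other 3 libraries, while pluripotency markers carried it at 5 of 6 and 4 of 6 in WT and arid4b-delta endoderm, and at 2 of 6 and 5 of 6 in WT and arid4b-delta mesoderm. Promoter H3K27ac was at 0 of 5 fibroblast and 0 of 5 extraembryonic endoderm markers in all 4 libraries, and of 5 trophoblast markers only Cdx2 carried it, in WT mesoderm. By H3K27ac arid4b-delta mesoderm thus had most pluripotency markers and lacked the mesoderm markers. Of all genes 27.2%, 26.8%, 30.3% and 32.2% carried promoter H3K27ac in WT endoderm, arid4b-delta endoderm, WT mesoderm and arid4b-delta mesoderm. In WT and arid4b-delta mesoderm H3K4me3 stood at 7 and 6 of 8 mesoderm markers and 3 and 6 of 6 pluripotency markers. Of all genes 57.7% and 61.2% carried it. The part of these marker differences in the genotype differences was not tested.

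Several imprinted genes have more than 1 start, and the marks separated them. The 250 bases before a start are shown for 3 genes in which neighbouring starts carried different marks, from RefSeq on GRCm38.p6, 5′ to 3′ in the direction of the gene. CpG dinucleotides, the sites of DNA methylation, are in capitals.
Mest, start 1, chr6:30733256-30733505, plus strand, no peak of any mark: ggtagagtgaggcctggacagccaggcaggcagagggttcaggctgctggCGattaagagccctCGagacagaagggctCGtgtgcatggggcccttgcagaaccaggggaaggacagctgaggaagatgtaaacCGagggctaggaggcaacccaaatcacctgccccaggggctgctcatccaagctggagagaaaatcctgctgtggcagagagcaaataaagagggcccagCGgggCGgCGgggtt
Mest, start 2, chr6:30737800-30738049, plus strand, H3K4me3 in all 4 libraries: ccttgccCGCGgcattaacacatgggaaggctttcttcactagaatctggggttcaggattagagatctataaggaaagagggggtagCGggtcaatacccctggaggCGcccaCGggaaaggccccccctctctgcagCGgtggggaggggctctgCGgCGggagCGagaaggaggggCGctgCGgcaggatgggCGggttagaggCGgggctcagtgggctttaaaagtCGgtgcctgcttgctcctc
Grb10, start 1, chr11:12037421-12037670, minus strand, H3K4me3 and H3K27me3 in all 4 libraries: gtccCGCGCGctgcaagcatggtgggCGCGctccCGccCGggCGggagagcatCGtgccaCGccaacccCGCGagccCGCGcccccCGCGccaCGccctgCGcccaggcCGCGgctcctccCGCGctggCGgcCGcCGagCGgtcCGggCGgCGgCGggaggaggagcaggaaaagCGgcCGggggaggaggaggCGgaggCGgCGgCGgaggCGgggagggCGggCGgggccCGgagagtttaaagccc
Grb10, start 2, chr11:12027972-12028221, minus strand, H3K27me3 alone in all 4 libraries: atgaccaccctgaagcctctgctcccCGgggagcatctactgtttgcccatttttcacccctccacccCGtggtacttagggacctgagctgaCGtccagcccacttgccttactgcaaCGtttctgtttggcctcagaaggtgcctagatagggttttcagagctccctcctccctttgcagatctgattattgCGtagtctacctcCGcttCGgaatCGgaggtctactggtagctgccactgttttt
Zdbf2, start 1, chr1:63200108-63200357, plus strand, no peak of any mark: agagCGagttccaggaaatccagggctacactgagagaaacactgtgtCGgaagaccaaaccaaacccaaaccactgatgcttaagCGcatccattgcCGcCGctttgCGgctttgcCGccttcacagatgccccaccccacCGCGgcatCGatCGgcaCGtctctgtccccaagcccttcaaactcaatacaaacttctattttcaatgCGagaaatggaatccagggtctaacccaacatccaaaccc
Zdbf2, start 2, chr1:63273019-63273268, plus strand, H3K4me3 and H3K27ac in all 4 libraries: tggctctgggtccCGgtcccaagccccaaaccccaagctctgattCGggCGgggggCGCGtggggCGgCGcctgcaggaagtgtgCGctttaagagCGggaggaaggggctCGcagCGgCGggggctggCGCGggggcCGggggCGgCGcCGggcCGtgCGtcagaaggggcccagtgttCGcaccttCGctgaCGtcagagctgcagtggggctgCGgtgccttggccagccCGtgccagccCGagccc
At Mest, a paternally expressed gene of the alpha/beta hydrolase fold family, the upstream stretch held 7 CpG and the downstream one 14. A further RefSeq start lies a few bases from the downstream one and had the same marks. At Zdbf2, a paternally expressed zinc finger gene, the counts were 13 and 26. At Grb10, which encodes a growth factor receptor adaptor, the upstream stretch held 40 CpG and the downstream one 8. The absence of H3K4me3 at the downstream Grb10 start depended on the window. An H3K4me3 site at chr11:12025606-12026773 lay just outside it in 3 libraries. Its folds were 7.57, 6.14 and 9.02 in arid4b-delta endoderm, WT mesoderm and arid4b-delta mesoderm.

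Over the 300-base windows of the promoter table (250 bases before to 50 after a start), the imprinted genes' 27 starts with H3K4me3 in all 4 libraries had a median of 17 CpG, the 7 with it in 1 to 3 libraries had 20, and the 13 with none had 4. Over all protein-coding starts the corresponding medians were 23, 13 and 3, so starts with H3K4me3 had the higher medians in both, although the imprinted genes' ranges overlapped (5 to 48 CpG with it in all 4 libraries, 2 to 15 with none). The 14 starts with H3K27me3 in all 4 libraries had a median of 25.5 CpG, the 6 with it in 1 to 3 libraries 8.5, and the 27 with none 15. Over all protein-coding starts these medians were 23, 20 and 10. Starts of maternally expressed genes held a median of 23 CpG and those of paternally expressed genes 11, against 7 for all 32851 windows of the table. These windows belong to 27025 genes, not only the protein-coding ones, also in the motif shares below, so the set is unlike the imprinted genes. The letters TGCCGC, the core of the motif bound by the imprint-protecting factor Zfp57, were searched on both strands and stood in 9 of the 47 windows (19.1%), against 11.6% of all windows. They occurred 3 times in the unmarked Zdbf2 window, 2 times in each of the overlapping downstream Mest windows, and once each in windows of Grb10, Igf2, Nnat, Plagl1, Snrpn and Zim1. The letters AANATGGC, the core of the Yy1 motif, stood in 3 windows (6.38%, against 6.05% of all), at Mkrn3, Slc38a4 and Ube3a.

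H3K4me3 was found at the promoters of 25 of the 36 genes in WT endoderm (69.4%, exact 95% interval 51.9 to 83.7), where it marked 55.2% of all protein-coding genes. The counts were 30 in arid4b-delta endoderm (background 60.2%), 29 in WT mesoderm (57.7%) and 31 in arid4b-delta mesoderm (61.2%). The imprinted genes' interval contained the background in WT endoderm and lay above it in the other 3 libraries, with lower bounds of 67.2, 64.0 and 70.5%. This depended on the starts used, because a gene with several starts has more windows. With the outermost start only, the counts were 22 and 26 in WT and arid4b-delta endoderm and 25 and 27 in mesoderm. The interval for 25 of 36, 51.9 to 83.7%, contains the 57.7% of WT mesoderm. The background was not recomputed for that setting. H3K27me3 marked 14 promoters in WT endoderm (38.9% of the 36, interval 23.1 to 56.5) against 14.2% of all genes, and 16 in arid4b-delta endoderm against 16.8%. In mesoderm it marked 11 in WT against 9.23%, and 17 in arid4b-delta against 16.0%. In each of the 4 libraries the lower bound of the imprinted genes' interval for H3K27me3 lay above the share of all genes. H3K27ac marked 10, 9, 10 and 11 promoters in WT endoderm, arid4b-delta endoderm, WT mesoderm and arid4b-delta mesoderm, against 27.2%, 26.8%, 30.3% and 32.2% of all genes, shares that lay inside the imprinted genes' intervals.

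**Figure D1:**
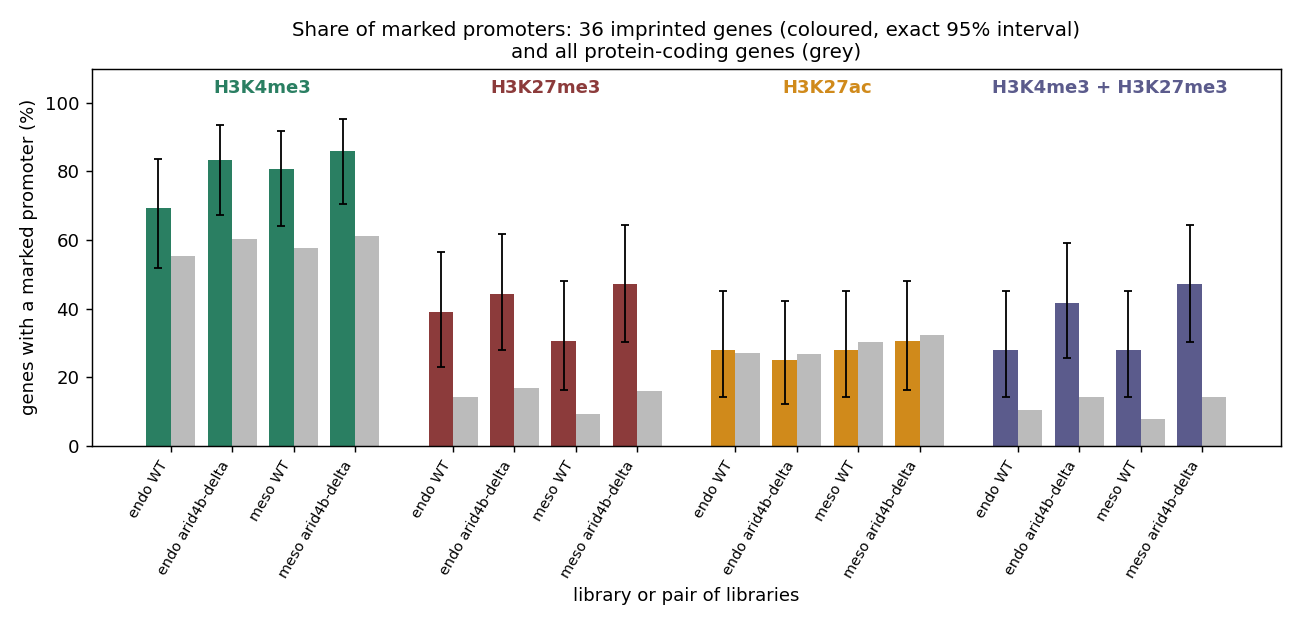
Percent of genes with a marked promoter (vertical axis) in each library, or pair of libraries for both marks (horizontal axis), for the 36 imprinted genes (coloured bars, with exact 95% binomial intervals for counting error) and all 21887 protein-coding genes (grey bars). The imprinted genes stand above the grey bars for H3K4me3, H3K27me3 and both marks in all 4 groups, with the H3K4me3 interval of WT endoderm reaching the grey bar, and beside them for H3K27ac.

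Both H3K4me3 and H3K27me3 lay at 1 start of 10 imprinted genes in WT endoderm (background 10.3%) and of 15 in arid4b-delta endoderm (14.2%). In mesoderm they did so at 10 in WT (7.77%) and 17 in arid4b-delta (14.3%). Of the 36 genes, 7 carried both marks within 1000 bp in all 4 pairs of libraries (5.57% of all genes did): the maternally expressed Cdkn1c, Phlda2, Gnas, Grb10 and Igf2r, and the paternally expressed Plagl1 and Peg12. Counting any pair, 17 did (17.9% of all genes), 6 of 14 maternally and 11 of 22 paternally expressed.

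**Figure D2:**
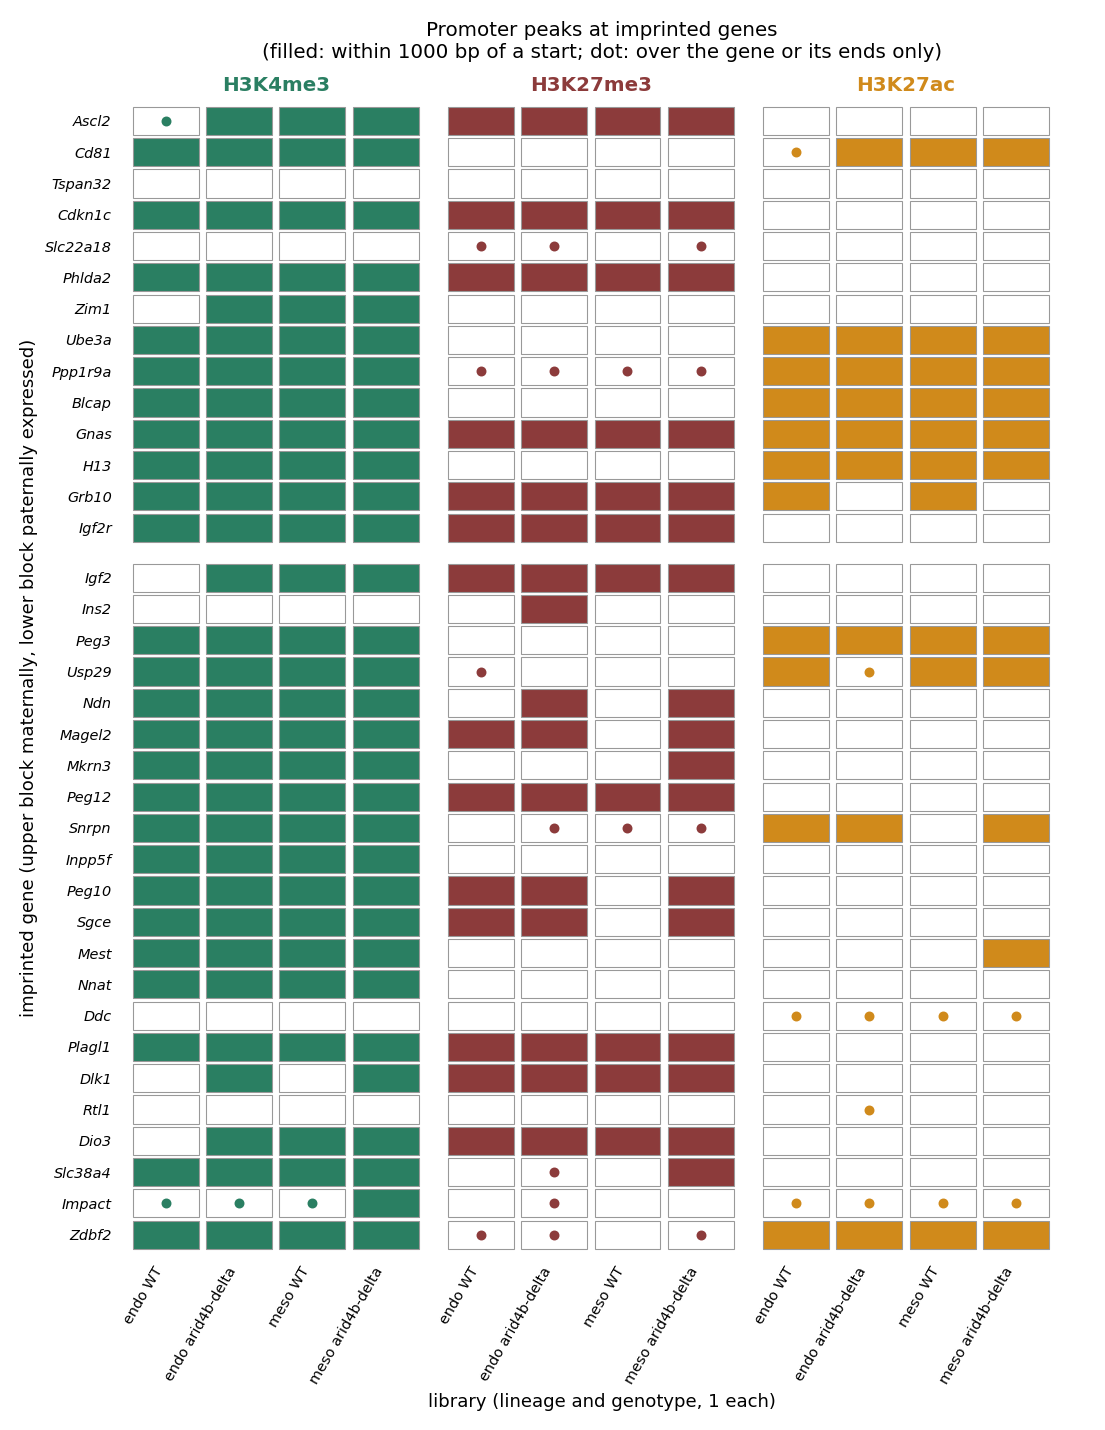
Promoter marks of the 36 imprinted genes (rows, maternally expressed in the upper block and paternally expressed in the lower) in the 12 libraries (columns, by mark, lineage and genotype). A filled box is a peak within 1000 bp of a start, a dot a peak over the gene or within 1000 bp of its ends only, and an empty box no peak. With this window the maternally expressed genes with H3K27me3 are the same 6 in all 4 libraries, while 7 paternally expressed genes have it in 1 to 3 of them.

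Across the 4 libraries H3K4me3 was constant at most of the genes. It stood at 25 promoters in all 4 (54.7% of all genes), at 6 in 1 to 3 of them (6.90%) and at 5 in none (38.4%). H3K27me3 was present in 1 to 3 libraries at 7 genes (12.7%) and in none at 18 (79.3%), and H3K27ac in 1 to 3 libraries at 5 (17.6%).

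The maternally expressed genes fell into 2 sets by H3K27me3. The same 6 of 14 carried it in all 4 libraries (8.06% of all genes did) and the other 8 had it in none. These 6 were Ascl2, Cdkn1c, Phlda2, Gnas, Grb10 and Igf2r. The split depended on the window. With a window of 500 bp, or with at least 500 bp covered, Gnas, Cdkn1c and Igf2r had no H3K27me3 in WT mesoderm, and 3 of the 6 carried it in all 4 libraries. Among the 22 paternally expressed genes, 5 carried it in all 4 libraries (Igf2, Peg12, Plagl1, Dlk1 and Dio3), 7 in some and 10 in none.

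Cdkn1c (chr7:143458339-143461059) encodes the cyclin-dependent kinase inhibitor p57 and lies in the distal chromosome 7 cluster. The authors' fold enrichment of its highest H3K27me3 promoter peak was 2.05 in WT endoderm, 2.48 in arid4b-delta endoderm, 2.95 in WT mesoderm and 2.92 in arid4b-delta mesoderm. These folds are the peak caller's, over control or local background within each library, and are not scaled between lists. The peaks themselves were longer in arid4b-delta, 10500 bp against 4337 bp in endoderm and 5482 bp against 1945 bp in mesoderm.

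Phlda2 (chr7:143501545-143503145), a pleckstrin homology protein that limits placental growth, had H3K27me3 folds of 1.94, 2.23, 2.0 and 3.35 in WT endoderm, arid4b-delta endoderm, WT mesoderm and arid4b-delta mesoderm. Its H3K4me3 folds were 7.16, 10.3, 9.56 and 9.78 in the same order. Both marks were thus present in all 4 groups, and the H3K4me3 peaks overlapped H3K27me3 over 433 bp in WT endoderm, their whole length in the window. In arid4b-delta endoderm the H3K27me3 peak at Phlda2, of 5568 bp, also reached into its neighbour Slc22a18, an organic cation transporter-like gene with no promoter mark. Over Slc22a18 there were 7 and 5 H3K27me3 peaks in arid4b-delta endoderm and mesoderm, against 1 and 0 in WT. The 7 include the peak shared with Phlda2. The arid4b-delta H3K27me3 lists were the longer of each pair, 16660 peaks against 10326 in endoderm and 9863 against 6150 in mesoderm. These peak counts were not recomputed with lists of equal length or set beside other genes.

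Igf2r (chr17:12682406-12769706) encodes the receptor that clears Igf2 from the cell surface. H3K4me3 at its start had folds of 17.3 and 18.5 in WT and arid4b-delta endoderm, and 13.2 and 15.4 in mesoderm. H3K27me3 at the same start had folds of 1.71 and 2.76 in endoderm, and 1.97 and 2.05 in mesoderm. In WT mesoderm the H3K27me3 peak covered 165 bp of the 2001 bp window and shared 0 bp with H3K4me3, while in WT endoderm the marks shared 724 bp. When both lists of the pair were reduced to equal length by fold, the WT mesoderm peak was kept and the arid4b-delta mesoderm one was not.

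Grb10 (chr11:11930499-12037428) carried the longest H3K27me3 promoter peak of the 36 genes. In arid4b-delta endoderm 1 peak of 18109 bp ran over both of its starts. In WT endoderm the same stretch held separate peaks, the longest of 6196 bp and 5786 bp, and in WT mesoderm the longest was 1572 bp. In arid4b-delta mesoderm the longest was 7704 bp. H3K4me3 lay at the upstream, CpG-rich start in all 4 libraries, with folds of 8.34, 13, 12.9 and 16.3 in the order WT endoderm, arid4b-delta endoderm, WT mesoderm, arid4b-delta mesoderm. H3K27ac stood at this start in WT endoderm (fold 6.06) and WT mesoderm (fold 6.19), and no H3K27ac peak was called there in either arid4b-delta library.

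Gnas (chr2:174284320-174346744) encodes the stimulatory G protein alpha subunit and has 4 RefSeq starts. The furthest upstream start carried H3K4me3 in all 4 libraries and no H3K27me3. The pair of closely spaced middle starts carried both in all 4. The downstream start, which had 40 CpG in its window, carried H3K4me3, H3K27me3 and H3K27ac in all 4 libraries. At that start the H3K4me3 and H3K27me3 peaks shared only 15 bp in WT endoderm and 0 bp in WT mesoderm, against 831 bp and 494 bp in arid4b-delta endoderm and mesoderm. H3K27ac was found together with H3K27me3 at a promoter of Gnas in all 4 groups and of Grb10 in WT only. That made 2 of the 36 genes in WT endoderm and in WT mesoderm (1.37% and 0.717% of all genes). In arid4b-delta endoderm and mesoderm it was 1 of the 36 (1.70% and 1.98% of all genes). The intervals, 0.680 to 18.7% for 2 of 36 genes and 0.0703 to 14.5% for 1 of 36, contained these shares.

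Ascl2 (chr7:142966822-142969264), a transcription factor of the placenta, had H3K27me3 in all 4 libraries, with folds of 2.41, 2.12, 1.85 and 2.13 in WT endoderm, arid4b-delta endoderm, WT mesoderm and arid4b-delta mesoderm. Its H3K4me3 folds were 8.04 in arid4b-delta endoderm, 6.92 in WT mesoderm and 10.1 in arid4b-delta mesoderm. In WT endoderm the nearest H3K4me3 peak lay 1048 bp from the start, just outside the window, with fold 5.55.

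Igf2 (chr7:142650768-142666816), the fetal growth factor, was 1 of the paternally expressed genes with H3K27me3 in all 4 libraries. Its H3K27me3 peak was 8713 bp long in WT endoderm, and the longest peaks in arid4b-delta endoderm and mesoderm were 11471 bp and 11292 bp. In WT mesoderm the mark was broken into 4 peaks, the longest of 1473 bp. H3K4me3 was absent from all 4 Igf2 starts in WT endoderm, where the nearest peak was 123746 bp away. It lay over the 3 downstream starts in arid4b-delta endoderm, WT mesoderm and arid4b-delta mesoderm, with highest folds of 7.38, 10.3 and 12.8.

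Dlk1 (chr12:109452485-109463336), a non-canonical Notch ligand, and Dio3 (chr12:110279230-110281097), the deiodinase that inactivates thyroid hormone, flank the chromosome 12 cluster. H3K27me3 at Dlk1 had folds of 2.59 and 2.16 in WT and arid4b-delta endoderm, and 2.64 and 2.27 in mesoderm. H3K4me3 was called at Dlk1 in arid4b-delta only, with folds of 6.61 in endoderm and 6.40 in mesoderm and lengths of 263 bp and 214 bp. Both of these short peaks fell outside a window of 500 bp. At Dio3 the H3K27me3 peaks were 8896 bp, 8587 bp, 6788 bp and 9090 bp long in WT endoderm, arid4b-delta endoderm, WT mesoderm and arid4b-delta mesoderm. H3K4me3 at Dio3 had folds of 15.3 in arid4b-delta endoderm, 5.12 in WT mesoderm and 11.2 in arid4b-delta mesoderm, and in WT endoderm the nearest peak lay 166940 bp from the start. Rtl1, the retrotransposon-derived placental gene between them, had no promoter mark in any library.

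Plagl1 (chr10:13090832-13131694), a zinc finger transcription factor, and Peg12 (chr7:62461871-62464510), which encodes the GSK3-binding protein Frat3, carried both marks in all 4 groups. The H3K4me3 folds of Plagl1 were 4.52 and 8.78 in WT and arid4b-delta endoderm, and 7.91 and 8.15 in mesoderm. Those of Peg12 were 4.52 and 5.53 in the endoderm lists and 8.82 and 9.89 in the mesoderm lists. The H3K27me3 folds at both genes were low, 1.59 to 1.94 for Plagl1 and 1.73 to 2.09 for Peg12.

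**Figure D3:**
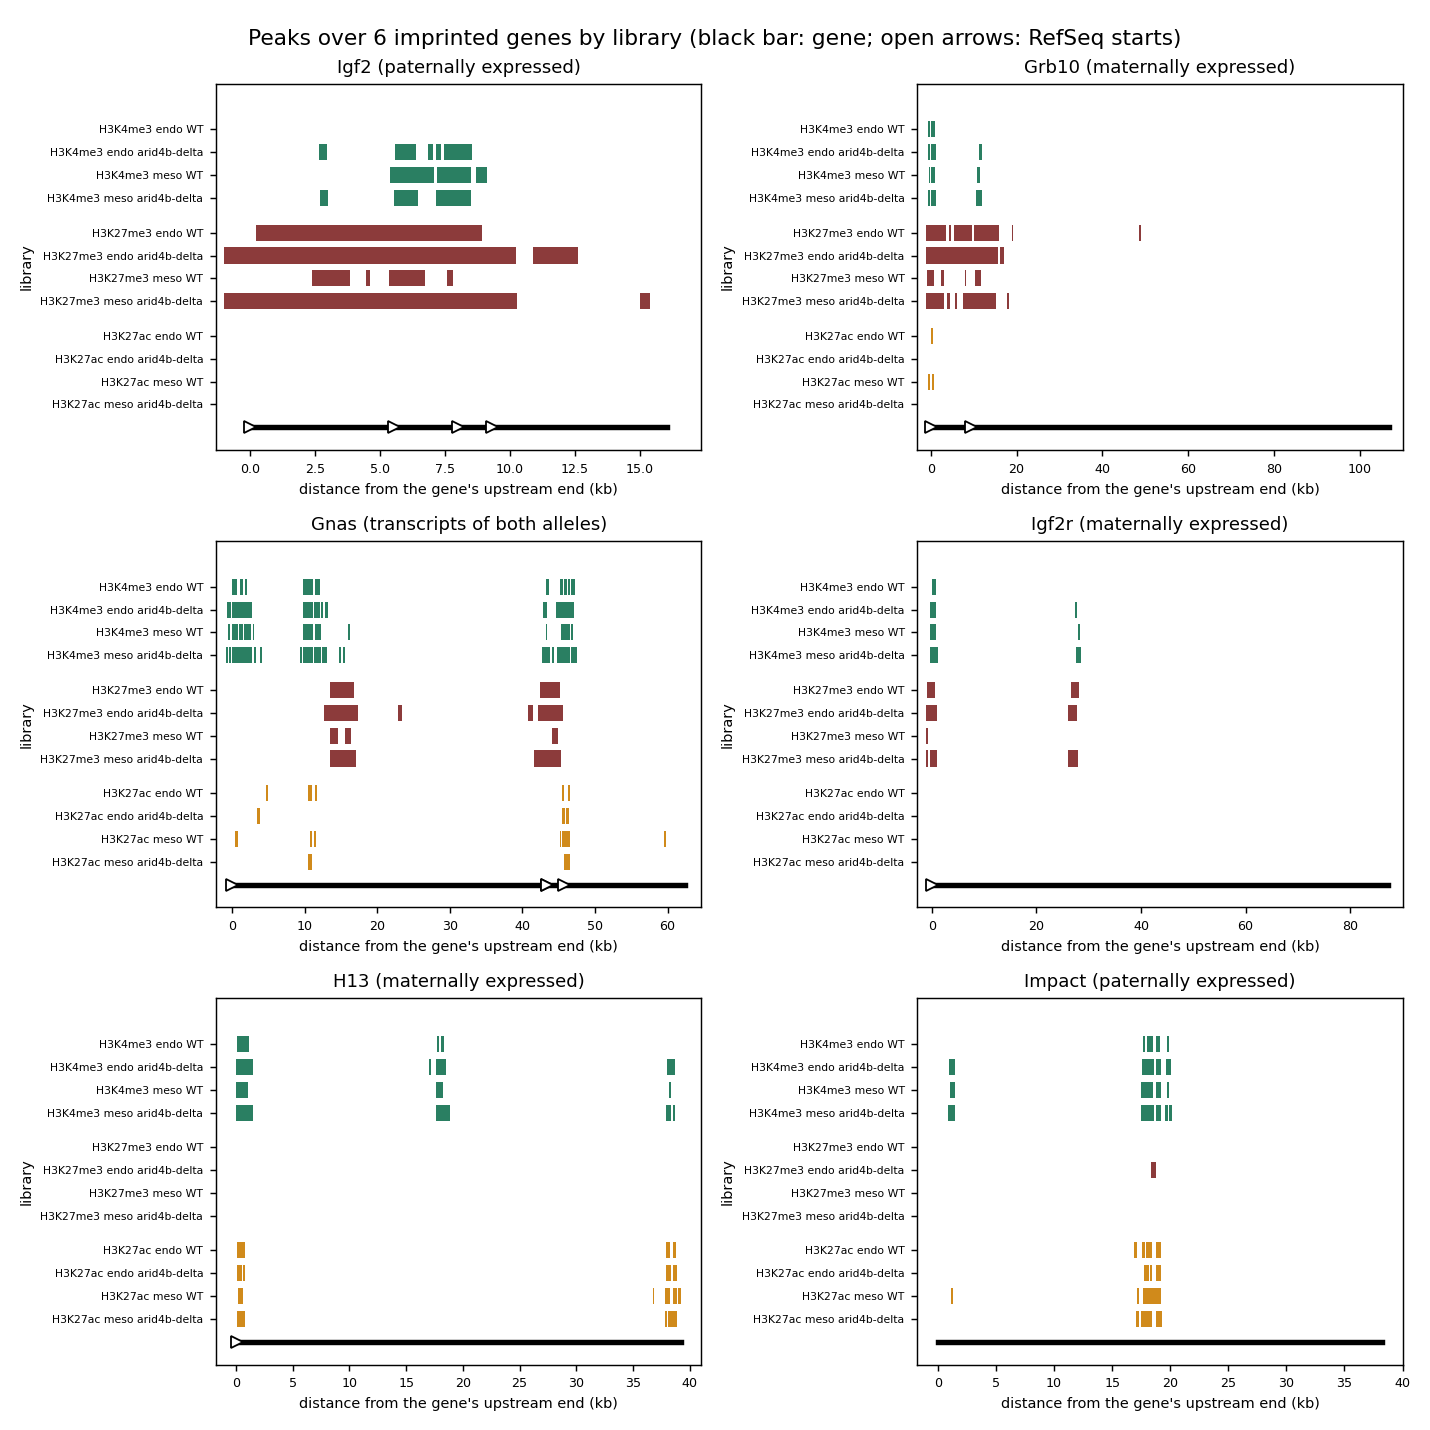
Peaks over Igf2, Grb10, Gnas, Igf2r, H13 and Impact (panels) in each of the 12 libraries (rows, coloured by mark) against distance from the gene's upstream end in kb, with the gene as a black bar and its RefSeq starts as open arrows. In arid4b-delta endoderm H3K27me3 at Igf2 and at Grb10 is a long peak and a short one, Igf2 has no H3K4me3 in WT endoderm, and H3K4me3 lies 17 to 20 kb inside Impact in all 4 libraries. RefSeq gave no start for Impact, whose bar is drawn from the lower coordinate.

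The genotypes differed at promoter H3K4me3 in 1 direction only. In endoderm 5 genes had a peak in arid4b-delta only (5.05% of all genes): the paternally expressed Igf2, Dlk1 and Dio3 and the maternally expressed Ascl2 and Zim1. The first 4 of these genes carried H3K27me3 in both genotypes. Within 1000 bp of a start they had H3K27me3 alone in WT endoderm and both marks in arid4b-delta endoderm. With a window of 2500 bp Ascl2 had both marks in WT endoderm too. Zim1 (chr7:6674444-6696540), a zinc finger gene beside Peg3, had no H3K27me3, and H3K4me3 folds of 6.58 in arid4b-delta endoderm, 5.83 in WT mesoderm and 8.15 in arid4b-delta mesoderm. No imprinted gene had H3K4me3 in WT endoderm only (0.0822% of all genes did). In mesoderm Dlk1 and Impact were the 2 genes with H3K4me3 in arid4b-delta only (3.56%), and 0 had it in WT only (0.123%). The Impact peak reached only 99 bp into the window at the gene end used. It was the only H3K4me3 peak at either end of Impact, so it chose the place that it then marked. The Impact call is therefore not a genotype difference at a known start. The exact 95% intervals of these shares, 4.67 to 29.5% for 5 of 36 genes and 0.680 to 18.7% for 2 of 36, contained the background.

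The arid4b-delta H3K4me3 lists were the longer of each pair, 25272 peaks against 22292 in endoderm and 26852 against 21752 in mesoderm. When both lists of a pair were reduced to equal length by fold, the same 5 and 2 genes were found in arid4b-delta only. When the upper 50% of each list was kept, Dio3 alone of the 5 endoderm genes and neither of the 2 mesoderm genes remained. With at least 500 bp covered, only Ascl2 and Igf2 of the 5 remained. With a window of 2500 bp Ascl2 dropped out, and with the outermost start Igf2 did. The 4 genes Igf2, Ascl2, Zim1 and Dio3 also had H3K4me3 in WT mesoderm and not in WT endoderm (2.96% of all genes differed this way), and no imprinted gene showed the opposite (0.466%). Within 1000 bp of a start, WT endoderm was therefore the library without these peaks among the 4. At Ascl2 it had an H3K4me3 peak just outside, 1048 bp from the start, with fold 5.55.

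For H3K27me3 the genes with a peak in arid4b-delta only depended on list length and window. In endoderm they were Ins2, the insulin gene next to Igf2, and Ndn (4.47% of all genes), with 0 in WT only (1.90%). In mesoderm they were 6 genes, Ndn, Magel2, Mkrn3, Peg10, Sgce and Slc38a4 (7.36%), with 0 in WT only (0.608%). The interval for 6 of 36 was 6.37 to 32.8%, which contains the background. These genes are all paternally expressed, but in mesoderm the intervals for 0 of 14 maternally expressed genes (0 to 23.2%) and 6 of 22 paternally expressed ones (10.7 to 50.2%) overlapped. Peg10 and Sgce were called from 1 shared peak, of fold 1.08, which the intervals for these 6 genes count 2 times. With a window of 500 bp, or with at least 500 bp covered, the maternally expressed Gnas, Cdkn1c and Igf2r were also in arid4b-delta only in mesoderm. With a window of 2500 bp, or with either gene end, the maternally expressed Slc22a18 was. With the upper 50% of each list the endoderm genes were Cdkn1c, Phlda2 and Igf2r, all maternally expressed. With lists matched in length, 0 genes were in arid4b-delta only in endoderm and 5 were in WT only (Magel2, Peg10, Sgce, Peg12 and Plagl1), so the direction turned. In mesoderm 2 remained in arid4b-delta only (Mkrn3 and Slc38a4) and 2 were in WT only (Plagl1 and Igf2r). In the same pair of mesoderm libraries H3K27me3 marked 2 of the 8 mesoderm markers in WT and 7 in arid4b-delta (9.23% and 16.0% of all genes). The part of cell state in the counts at imprinted genes was not tested.

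Ndn, Magel2 and Mkrn3 lie beside each other in the central chromosome 7 cluster (chr7:62348277-62349928, chr7:62376979-62381640 and chr7:62417593-62420153) and encode the MAGE-family proteins necdin and Magel2 and a RING finger protein. Their H3K4me3 was present in all 4 libraries, with folds of 6.26 to 9.92 at Ndn, 7.08 to 9.69 at Magel2 and 10.6 to 22.1 at Mkrn3. In arid4b-delta mesoderm the H3K27me3 folds were 1.67 at Ndn, 2.03 at Magel2 and 2.88 at Mkrn3, with -log10 q values of 0.938, 1.82 and 3.81. In WT mesoderm the nearest H3K27me3 peaks lay 114301 bp, 85599 bp and 42425 bp from these starts. The whole run of 3 genes was thus without a called H3K27me3 peak in WT mesoderm. In endoderm Magel2 had H3K27me3 in both genotypes, at folds of 2.24 in WT and 1.57 in arid4b-delta, and Ndn only in arid4b-delta, at 1.64 and a -log10 q of 0.670.

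Peg10, a retrotransposon-derived gene, and Sgce, which encodes epsilon-sarcoglycan, are transcribed away from each other from their shared promoter region at the boundary of chr6:4674350-4747204 and chr6:4747306-4760517. A single H3K27me3 peak lay at both, with folds of 1.45 and 1.35 in WT and arid4b-delta endoderm and 1.08 in arid4b-delta mesoderm. Slc38a4 (chr15:96994816-97055956), an amino acid transporter, had H3K27me3 at its upstream start in arid4b-delta mesoderm only, at fold 2.26, and H3K4me3 there in all 4 libraries, at folds of 4.99, 12, 9.86 and 12.2 in WT endoderm, arid4b-delta endoderm, WT mesoderm and arid4b-delta mesoderm. Both marks together were arid4b-delta only at 5 genes in endoderm (5.45% of all genes) and at 7 in mesoderm (7.01%), and WT only at 0 (1.54% and 0.475%). The 7 in mesoderm were the 6 genes with H3K27me3 in arid4b-delta only and Dlk1. With lists matched in length, both marks were in WT only at 5 genes in endoderm (Magel2, Peg10, Sgce, Peg12 and Plagl1) against 4 in arid4b-delta only (Igf2, Ascl2, Dlk1 and Dio3), so the direction turned. In mesoderm they were then in WT only at 2 genes (Plagl1 and Igf2r) and in arid4b-delta only at 3 (Mkrn3, Dlk1 and Slc38a4).

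Between the lineages few other imprinted genes differed. In arid4b-delta H3K4me3 was in mesoderm only at 1 gene, Impact (1.32% of all genes), and in endoderm only at 0 (0.356%). The Impact call rests on the same peak that chose its place. H3K27me3 in WT was in endoderm only at 3 genes, Magel2, Peg10 and Sgce (5.91%), and in mesoderm only at 0 (0.909%). In arid4b-delta it was in mesoderm only at Mkrn3 and Slc38a4 (2 genes, 2.20%) and in endoderm only at Ins2 (1 gene, 3.02%). With a window of 500 bp the maternally expressed Gnas, Cdkn1c and Igf2r also had H3K27me3 in WT endoderm and not in WT mesoderm. H3K27ac in WT was in mesoderm only at Cd81 (1 gene, 6.42%) and in endoderm only at Snrpn (1 gene, 3.37%). In arid4b-delta it was in mesoderm only at Usp29 and Mest (2 genes, 7.53%) and in endoderm only at 0 genes (2.15%).

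Where a promoter was marked in both genotypes, the covered length was compared. H3K4me3 covered more bases in arid4b-delta at 25 of 25 genes in endoderm (98.0% of all genes) and at 23 of 29 in mesoderm (79.3%, interval 60.3 to 92.0, against 93.3% of all genes). The other 6 in mesoderm, Igf2, Usp29, Inpp5f, Peg10, Sgce and Slc38a4, had more cover in WT, by the largest amount at Igf2 (1705 bp against 1348 bp). The median H3K4me3 cover in the 2001 bp window was 748 bp in WT and 1065 bp in arid4b-delta endoderm. H3K27me3 covered more in arid4b-delta at 6 of 14 genes in endoderm (51.4%) and less at 3, Peg12, Peg10 and Sgce. The other 5, Igf2, Ascl2, Grb10, Dlk1 and Dio3, filled the whole window in both genotypes and could not show more. In mesoderm it covered more at 10 of 11 (78.6%), where the median cover was 817 bp in WT and 2001 bp, the whole window, in arid4b-delta. Gnas had 302 bp of H3K27me3 in WT mesoderm and 2001 bp in arid4b-delta mesoderm, and Dio3 had 2001 bp in both.

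**Figure D4:**
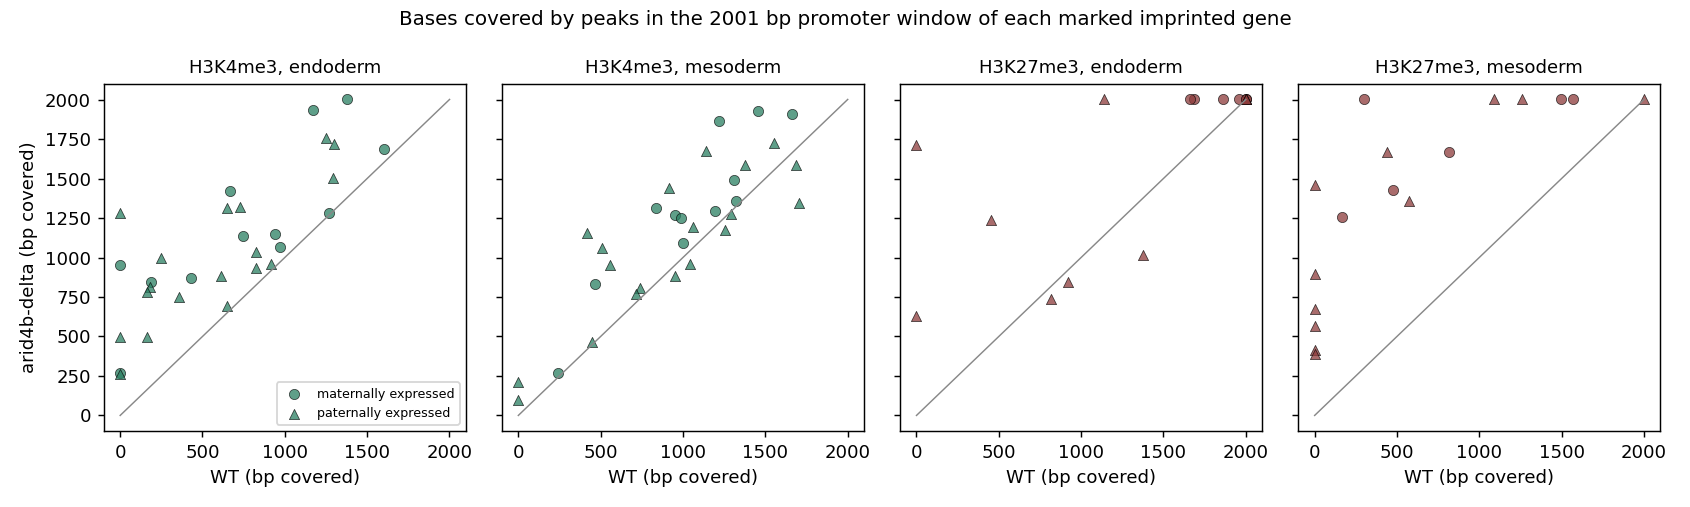
Bases of the 2001 bp promoter window covered by peaks in WT (horizontal axis) and arid4b-delta (vertical axis) for each imprinted gene marked in either genotype, by mark and lineage, with circles for maternally and triangles for paternally expressed genes and a line of equal cover. Every H3K4me3 point in endoderm lies above the line, and points at 0 on the horizontal axis are promoters marked in arid4b-delta only. Each gene is shown by the start with the most cover.

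H3K27ac stood at the promoters of 7 genes in all 4 libraries (20.5% of all genes): the maternally expressed Ube3a, Ppp1r9a, Blcap, Gnas and H13 and the paternally expressed Peg3 and Zdbf2. It was found in none at 24 genes (61.9%), 7 of 14 maternally and 17 of 22 paternally expressed. Impact is among the 17 by the gene end used, although H3K27ac lay inside the gene in all 4 libraries. In each library 6 or 7 of the 14 maternally expressed genes and 3 to 5 of the 22 paternally expressed genes were acetylated. In arid4b-delta mesoderm the shares were 42.9% (interval 17.7 to 71.1) and 22.7% (7.82 to 45.4), and the intervals overlapped in every library.

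Ube3a (chr7:59228750-59310837) encodes a ubiquitin ligase that is imprinted in neurons. Its H3K27ac folds were 29.9, 11.7, 16.6 and 18.1 in WT endoderm, arid4b-delta endoderm, WT mesoderm and arid4b-delta mesoderm. Its H3K4me3 folds were 11.5, 27.2, 18.7 and 22.9 in that order, and no H3K27me3 peak lay over the gene. Snrpn (chr7:59982495-60450177), the paternally expressed gene for the spliceosomal protein SmN in the same domain, has 4 RefSeq starts over a long locus. Only its most downstream start, at position 60005199, was marked, with H3K4me3 folds of 10.1 and 17 in WT and arid4b-delta endoderm and 7.55 and 19.5 in mesoderm. H3K27ac there had folds of 5.66 and 6.41 in WT and arid4b-delta endoderm and 8.09 in arid4b-delta mesoderm, with no peak in WT mesoderm. The other 3 Snrpn starts held 2 to 4 CpG in their windows and carried none of the marks.

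Peg3 and Usp29, a zinc finger gene and a ubiquitin protease gene transcribed in opposite directions, carried H3K4me3 in all 4 libraries, with Peg3 folds of 8.74 and 14.5 in WT and arid4b-delta endoderm and 12.2 and 16.6 in mesoderm. H3K27ac at Peg3 had folds of 12 and 10.5 in endoderm and 7.30 and 18.9 in mesoderm. In arid4b-delta endoderm its acetylation covered 45 bp of the Peg3 window and none of the Usp29 window, so Usp29 counted as acetylated in WT only. No H3K27me3 peak lay at either promoter. Zdbf2 (chr1:63200358-63314576) had H3K27ac folds of 2.96 and 4.72 in WT and arid4b-delta endoderm and 13.2 and 10.1 in mesoderm, all at its downstream start.

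Few imprinted genes changed in promoter H3K27ac between genotypes. Cd81, a tetraspanin imprinted in the placenta, was acetylated in arid4b-delta only in endoderm (1 gene, background 4.26%), at fold 7.39 over 223 bp. Usp29 and Grb10 were acetylated in WT only (2 genes, 4.71%). In mesoderm Snrpn and Mest were acetylated in arid4b-delta only (2 genes, 5.58%) and Grb10 in WT only (1 gene, 3.69%). Grb10 was the gene that lacked H3K27ac in arid4b-delta in both lineages, and it stayed among the WT-only genes when lists were matched in length. With the upper 50% of each list no gene was acetylated in WT only.

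H3K4me3 without H3K27me3 or H3K27ac at the promoter was found in all 4 libraries at Inpp5f and Nnat. The share of all genes in this state was not counted. Inpp5f (chr7:128611181-128696436), a phosphoinositide phosphatase with an imprinted short isoform, had folds of 14.0 and 27.4 in WT and arid4b-delta endoderm, and 14.7 and 15.6 in mesoderm. Nnat (chr2:157560078-157562525) encodes the small proteolipid neuronatin, and its folds were 5.11 and 9.50 in endoderm and 5.90 and 10.5 in mesoderm. Nnat lies inside Blcap, whose own promoter was acetylated in all 4 libraries at folds of 10.6 to 19.6. Mest had H3K4me3 folds of 7.73 and 10.8 in endoderm and 6.26 and 16.8 in mesoderm.

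No promoter mark was found in any of the 12 libraries at 4 genes, Tspan32, Slc22a18, Ddc and Rtl1 (35.3% of all genes). Their RefSeq starts held 2 to 5 CpG where a window was listed. Ddc, which encodes dopa decarboxylase and neighbours Grb10, had an H3K27ac site 68270 to 69894 bp from its upstream end in all 4 libraries, with folds of 7.95, 11.4, 7.42 and 13.3 in WT endoderm, arid4b-delta endoderm, WT mesoderm and arid4b-delta mesoderm. Ins2 had no H3K4me3 and no H3K27ac in any library.

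Peaks inside the genes, over 1000 bp from any of their starts, were found at several loci that hold a second, oppositely imprinted transcript. In H13 (chr2:152669422-152708668), a signal peptide peptidase, an H3K4me3 site 17002 to 18859 bp from the upstream end lay at the start of Mcts2, a gene within its intron. Its folds were 5.52, 11.3, 6.68 and 18.3 in WT endoderm, arid4b-delta endoderm, WT mesoderm and arid4b-delta mesoderm. In Igf2r a site 27326 to 28395 bp inside lay at the start of Airn, the noncoding RNA read against it, with H3K4me3 folds of 6.01, 6.77 and 5.41 in arid4b-delta endoderm, WT mesoderm and arid4b-delta mesoderm and no peak in WT endoderm. H3K27me3 at this site had folds of 1.60, 2.18 and 1.89 in WT endoderm, arid4b-delta endoderm and arid4b-delta mesoderm. The internal Igf2r site thus had both marks in the 2 arid4b-delta groups and 1 mark in each WT group.

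Impact (chr18:12954690-12992950), a translational regulator, had its strongest site 17456 to 20143 bp from the lower gene end, with H3K4me3 folds of 10.1, 16.3, 15.3 and 16.9 and H3K27ac folds of 25.1, 21.5, 28.6 and 30.0 in WT endoderm, arid4b-delta endoderm, WT mesoderm and arid4b-delta mesoderm. The gene end counted as its promoter lay away from this site. Without a RefSeq start, whether this site is the promoter of Impact was not determined. The promoter counts above treat Impact by that gene end only, and so may be wrong for this gene. Within Gnas an H3K4me3 site 9360 to 13226 bp inside was followed by H3K27me3 at 12634 to 17408 bp, both in all 4 libraries. In Inpp5f an H3K4me3 site lay 76677 to 77643 bp inside in all 4 libraries, with folds of 4.87 and 12.7 in WT and arid4b-delta endoderm and 4.86 and 9.07 in mesoderm. Within Zdbf2 H3K27ac lay at 13126 to 14572 bp in all 4 libraries, over the start of Gpr1, and H3K4me3 at 46740 to 48320 bp in all 4. In Ppp1r9a, a protein phosphatase scaffold gene, H3K27me3 (20991 to 21318 bp) and H3K27ac (20871 to 21401 bp) were both called at 1 short site in all 4 libraries, with folds of 1.13 to 2.07 and 2.39 to 4.16. Whether these sites lie in exons or introns was not determined beyond the gene ends.

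Promoter H3K4me3 was called alike in both genotypes at each gene of a list of 24 that set or keep imprints (5.05% of all genes were in arid4b-delta only in endoderm and 3.56% in mesoderm). Of the 24, 22 carried promoter H3K4me3 in all 4 libraries (54.7% of all genes), among them Dnmt1, Uhrf1, Trim28, Zfp57, Ctcf and both Arid4a and Arid4b. The Arid4b promoter itself kept H3K4me3 in the arid4b-delta libraries, at folds of 26.9 and 27 against 11.4 and 16.0 in WT endoderm and mesoderm, so a promoter peak does not check the genotype label. H3K27ac was present at 16 and 18 of the 24 in WT and arid4b-delta endoderm (27.2% and 26.8% of all genes) and at 19 and 20 in mesoderm (30.3% and 32.2%). In endoderm 2 were in arid4b-delta only (4.26%) and in mesoderm 2 (5.58%), with 1 in WT only (3.69%). Tet3, a methylcytosine dioxygenase, was acetylated in arid4b-delta only in both lineages (folds 9.51 and 6.64). Its relative Tet2 was so in mesoderm and the de novo methyltransferase gene Dnmt3b in endoderm. Zfp57 was acetylated in WT mesoderm only (fold 6.89). H3K27me3 was called in 1 genotype only at Dnmt3a (WT only, folds 1.33 and 1.04), Setdb1 (arid4b-delta endoderm) and Tet2 (arid4b-delta mesoderm).

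A further 42 imprinted genes were listed, of which 40 were in the gene table. Some, such as Airn, Meg3 and Kcnq1ot1, are noncoding, while the shares beside them are of protein-coding genes. H3K4me3 marked 20 of the 40 in WT endoderm and 28 in arid4b-delta endoderm, against 55.2% and 60.2% of all protein-coding genes. Between these libraries 8 were in arid4b-delta only (Gatm, Ampd3, Kcnq1, Tnfrsf23, Kcnk9, Peg13, Slc22a3 and Airn) and 0 in WT only. Of all protein-coding genes 5.05% were in arid4b-delta only in that pair and 0.0822% in WT only. In mesoderm the counts were 24 and 29, against 57.7% and 61.2% of all protein-coding genes. The 5 genes Nap1l5, Kcnq1, Kcnk9, Peg13 and Slc22a3 were in arid4b-delta only (3.56% of all protein-coding genes). H3K27me3 marked 10 and 12 in endoderm (background 14.2% and 16.8%) and 9 and 12 in mesoderm (9.23% and 16.0%). It was in arid4b-delta only at 3 and 4 genes (background 4.47% and 7.36%) and in WT only at 1 and 1 (Atp10a and Calcr, background 1.90% and 0.608%). For H3K27ac the endoderm counts were 9 (WT) and 7 (arid4b-delta) and the mesoderm counts 8 and 10, against 27.2%, 26.8%, 30.3% and 32.2% of all protein-coding genes. The noncoding RNA Meg3 of the Dlk1 and Dio3 cluster was acetylated in WT endoderm (fold 5.44) and in arid4b-delta mesoderm (fold 6.35), and Kcnq1ot1, the noncoding RNA of the Cdkn1c domain, in 3 libraries but not in arid4b-delta endoderm.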

How the data were processed

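ChIP-seq peak lists of 12 libraries were analysed, 1 per mark, lineage and genotype, grouped by genotype, lineage and antibody as the labels give them. Bowtie2, Picard, MACS2 and the mm10 build are named, without versions, in the submitters' processing notes, and settings are not given in the sources used here. The deposited H3K27me3 lists hold broad peaks and the others narrow ones, each made from 1 library. Each deposited list gives a score, a fold enrichment ratio over control or local background, and -log10 p and q values per peak, all by the authors' peak caller, and the deposited narrow lists give a summit position (another unit). Narrow lists reached down to a -log10 q of 2.0 and broad lists to 0.307.

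Peaks were set against the gene table with Python 3.11.15, pandas 2.3.3, numpy 2.4.6 and scipy 1.17.1, and plotted with matplotlib 3.10.9. A promoter was marked when at least 1 bp of a peak lay within 1000 bp of any listed start. Both marks meant peaks in the window of the same start. Background counts used the same rule on all 21887 protein-coding genes, 17492 of them with RefSeq starts. Genes without RefSeq starts were placed at the end with more H3K4me3 (2646) or at both ends (1749), also where H3K27me3 and H3K27ac were counted, so a direct comparison favours H3K4me3 there. The overlap script was tested on simulated peaks. Maternal or paternal expression came from general knowledge of mouse imprinting. The named genes were the 36 members, the differing genes of an imprint maintenance list and of a list of other imprinted genes (Nespas and Zfp264 were not matched), and cell type markers. The members and lists were chosen with earlier results of these data known. Alternatives were lists matched in length within a genotype pair, the upper 50% of each list, windows of 500 and 2500 bp, either gene end, at least 500 bp covered, and the outermost start only. No test between groups was run, because each group had 1 library.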

Additional observations from a re-analysis of the deposited data

How the results depend on the processing

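Counts of the 36 genes were recomputed under 7 alternatives, of which the outermost start was chosen after seeing the data. Of 224 recomputed counts, 164 stayed within 1.5 times and 60 did not. The cause of the changes was not tested, beyond the fewer peaks that a shortened list or a stricter overlap leaves. No paired analysis was possible because each group had 1 library. With lists matched in length, both marks lay at 9 genes in arid4b-delta endoderm and 11 in arid4b-delta mesoderm, and H3K27me3 at 9 and 11. H3K27me3 in arid4b-delta only fell to 0 genes in endoderm and 2 in mesoderm, and in WT only rose to 5 and 2, which turned the direction in endoderm. Both marks in WT only rose from 0 to 5 in endoderm and 2 in mesoderm, and in arid4b-delta only fell to 3 in mesoderm. H3K27ac in WT only was then at 4 and 3 genes, and in arid4b-delta only at 1 in mesoderm. With the upper 50% of each list, H3K4me3 marked 11, 16, 15 and 18 genes in WT endoderm, arid4b-delta endoderm, WT mesoderm and arid4b-delta mesoderm, H3K27me3 7, 9, 6 and 5, both marks 1, 4, 2 and 2, and H3K27ac 6 in either WT library. Both marks were then in arid4b-delta only at 3 genes in endoderm and 2 in mesoderm, and in WT only at 2 in mesoderm. In that setting H3K27ac was in WT only at 0 genes in each lineage and in arid4b-delta only at 2 in endoderm. H3K27me3 was in WT only at 1 and 2 genes in endoderm and mesoderm and in arid4b-delta only at 1 in mesoderm, and H3K4me3 in mesoderm was in WT only at 1 and in arid4b-delta only at 4. With at least 500 bp covered, both marks lay at 5 genes in WT endoderm and 6 in WT mesoderm, H3K27me3 at 7 in WT mesoderm, and H3K27ac at 4, 5, 5 and 7 in the same order of libraries. In endoderm H3K4me3 was then in arid4b-delta only at 8 genes, and H3K27ac in WT only at 1 and in arid4b-delta only at 2. A window of 500 bp left 0 genes with H3K4me3 in arid4b-delta mesoderm only. A window of 2500 bp left 1, with H3K27ac in WT only at 1 in endoderm and 2 in mesoderm. Either gene end gave 7 genes with H3K27ac in arid4b-delta mesoderm, 0 in arid4b-delta only in each lineage and 2 in WT only in mesoderm. The outermost start gave 7, 0 and 2 for the same mesoderm counts.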
